A study of Homo sapiens with 9 samples.

Results

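The genes described here are 9 genes of activin and TGF-beta signalling, out of 27421 in the deposited table of a knockdown experiment in Huh7 cells. They were picked by symbol, because INHBB was known to be higher with knockdown in these data. They are the activin subunits INHBB, INHBA and INHBE, the activin-binding protein FST, the ligands TGFB1 and TGFB2, and the inhibitors SMAD7, BAMBI and SKIL. All 9 symbols were found, each on 1 row. Huh7 is an established human cell line derived from a hepatocellular carcinoma. The 9 libraries fall into 3 groups of 3, named control, shZMAT2-1 and shZMAT2-2. The last 2 are knockdown arms for ZMAT2, which codes for a spliceosomal zinc finger protein, and the labels do not say what the control cells received. The stated question was whether ZMAT2 acts on the carcinoma through splicing. The labels give no time, no hairpin sequence, and no word on whether an arm is a pool or a clone. They also do not say whether replicates were grown separately. The p-values therefore speak only of the scatter among these 9 libraries, which may be technical.

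Activins are dimers of inhibin beta subunits: INHBA gives activin A, INHBB activin B and INHBE activin E, the last made mainly in liver. Activins and TGF-beta bring type II and type I receptor kinases together, and these phosphorylate SMAD2 and SMAD3, which enter the nucleus with SMAD4 and change transcription. The signal is restrained at several steps. Follistatin (FST) binds activins outside the cell, BAMBI is a receptor-like protein without a kinase, SMAD7 blocks the receptors, and SKIL (SnoN) holds SMAD complexes inactive on DNA. In liver, activins and TGF-beta slow hepatocyte growth, and TGF-beta drives stellate cells to make matrix.

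Several facts of the libraries bear on every value below. The level unit is FPKM, which divides fragments by transcript length and library depth, so levels of different genes can be set side by side. Depth was 18430000 to 23740000 fragments per library. ZMAT2 itself was at 32.8 to 39.2 FPKM in the control libraries, 12.8 to 15.2 in shZMAT2-1 and 20.3 to 22.1 in shZMAT2-2. The libraries stood apart in the share of fragments from 13 mitochondrially encoded genes, which was 43.2% in control replicate 2 against 7.86% and 8.28% in the other control replicates. That share was 8.25%, 16.4% and 7.70% in shZMAT2-1 replicates 1, 2 and 3, and 27.0%, 14.5% and 16.6% in shZMAT2-2. A large mitochondrial share leaves fewer of a library's fragments for nuclear genes, so member levels were also scaled to the nuclear fragments alone. Of 8 hepatocyte markers, 8 were at 1 FPKM or more in every library. Stellate and fibroblast markers summed to 1.52 to 3.64 FPKM over 7 genes in control, 2.91 to 4.06 in shZMAT2-1 and 1.73 to 2.89 in shZMAT2-2, with DCN at or near 0 throughout. The 5 endothelial markers used summed to 0.781 to 1.75 FPKM over all libraries. The 6 leukocyte markers summed to 57.0 to 137 FPKM in control, 66.3 to 77.9 in shZMAT2-1 and 47.5 to 65.7 in shZMAT2-2, most of it LYZ. CD14 was at 2.47 to 8.74 FPKM over all libraries, while PTPRC, CD3E, CD68 and ITGAM were near 0.

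The 250 bases before the start site of 5 members are shown. In FPKM before nuclear scaling, these 5 alone among the members had groups that did not overlap in the comparisons below. Their base composition also differs widely. The stretches come from RefSeq on GRCh38.p14, in which 8 of the 9 members were matched. Each is written 5′ to 3′ on the strand of its gene. Capitals mark CAGAC or its reverse complement GTCTG, a short motif of the kind that SMAD3 and SMAD4 bind.
TGFB2, plus strand, chr1:218345086-218345335: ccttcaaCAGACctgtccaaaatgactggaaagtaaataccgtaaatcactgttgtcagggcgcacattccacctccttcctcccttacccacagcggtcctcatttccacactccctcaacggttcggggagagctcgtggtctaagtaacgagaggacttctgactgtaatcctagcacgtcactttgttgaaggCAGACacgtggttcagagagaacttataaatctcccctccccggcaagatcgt
INHBB, plus strand, chr2:120345886-120346135: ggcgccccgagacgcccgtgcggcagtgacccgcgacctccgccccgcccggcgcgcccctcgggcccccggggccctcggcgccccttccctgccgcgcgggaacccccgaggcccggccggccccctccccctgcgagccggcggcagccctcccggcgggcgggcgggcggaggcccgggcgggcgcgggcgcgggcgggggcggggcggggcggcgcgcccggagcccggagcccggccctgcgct
FST, plus strand, chr5:53480379-53480628: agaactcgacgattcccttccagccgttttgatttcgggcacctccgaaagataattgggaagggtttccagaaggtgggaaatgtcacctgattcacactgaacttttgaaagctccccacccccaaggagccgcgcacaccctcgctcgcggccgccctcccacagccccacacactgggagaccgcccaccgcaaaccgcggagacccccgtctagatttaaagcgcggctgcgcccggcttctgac
TGFB1, minus strand, chr19:41353923-41354172: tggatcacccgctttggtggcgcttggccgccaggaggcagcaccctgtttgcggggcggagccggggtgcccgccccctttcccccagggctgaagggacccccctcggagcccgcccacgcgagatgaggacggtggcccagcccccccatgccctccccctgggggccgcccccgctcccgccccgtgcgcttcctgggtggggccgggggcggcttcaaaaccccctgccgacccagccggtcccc
SMAD7, minus strand, chr18:48950966-48951215: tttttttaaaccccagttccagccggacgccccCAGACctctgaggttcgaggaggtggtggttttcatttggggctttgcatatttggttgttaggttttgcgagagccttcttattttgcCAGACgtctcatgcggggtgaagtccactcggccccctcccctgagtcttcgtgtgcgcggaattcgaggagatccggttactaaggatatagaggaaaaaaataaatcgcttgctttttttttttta

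The INHBB stretch was 89.6% G or C, that of TGFB1 76.8%, FST 60.0%, TGFB2 50.4% and SMAD7 48%, against a median of 58% over 35116 windows of the same length. CAGAC, searched on both strands, occurred 2 times in the TGFB2 stretch and 2 times in that of SMAD7, and it was not in these stretches of INHBB, FST or TGFB1. It is a common string, present in 38.0% of the 35116 windows. The TGFB2 stretch also held 1 TATAAA, found in 10.7% of windows, and 1 CACGTG, found in 6.34%, which shares a base with the second CAGAC. GTCTAGAC, the longer palindrome, was in none of the 8 matched members and in 0.182% of windows. TGACGTCA, the cyclic AMP response string, was in the SKIL window alone among the matched members and in 1.65% of all windows. BAMBI held CAGAC 2 times, SKIL held it 1 time and INHBA not at all. SMAD7 has 3 RefSeq windows, and the one shown begins at the start site of the deposited table. The SMAD7 windows not shown held CAGAC 1 and 0 times. These are matches of letters and not measured binding.

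In the control libraries the members spanned more than 2 orders of magnitude, from BAMBI at 47.9 ± 12.6 FPKM (SD, n = 3) to INHBA at 0.106 ± 0.0334 (SD, n = 3). FST followed BAMBI at 37.1 ± 13.6 FPKM (SD, n = 3), and the ranges of both overlapped. TGFB1 came next at 15.1 ± 2.66 FPKM (SD, n = 3). SMAD7 at 8.48 ± 3.68, SKIL at 8.09 ± 0.919 and INHBE at 6.36 ± 2.65 FPKM (SD, n = 3 each) overlapped, so their order is not resolved. TGFB2 was at 2.74 ± 0.588 FPKM (SD, n = 3) and INHBB at 0.254 ± 0.175 (SD, n = 3). The decoy receptor and the activin antagonist were thus the most abundant of these messages, and the activin A and B subunits the least abundant. In the shZMAT2-2 libraries BAMBI led again with 53.5 ± 5.70 FPKM and FST lay below it without overlap, at 22.6 ± 3.29 (SD, n = 3 each).

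**Figure D1:**
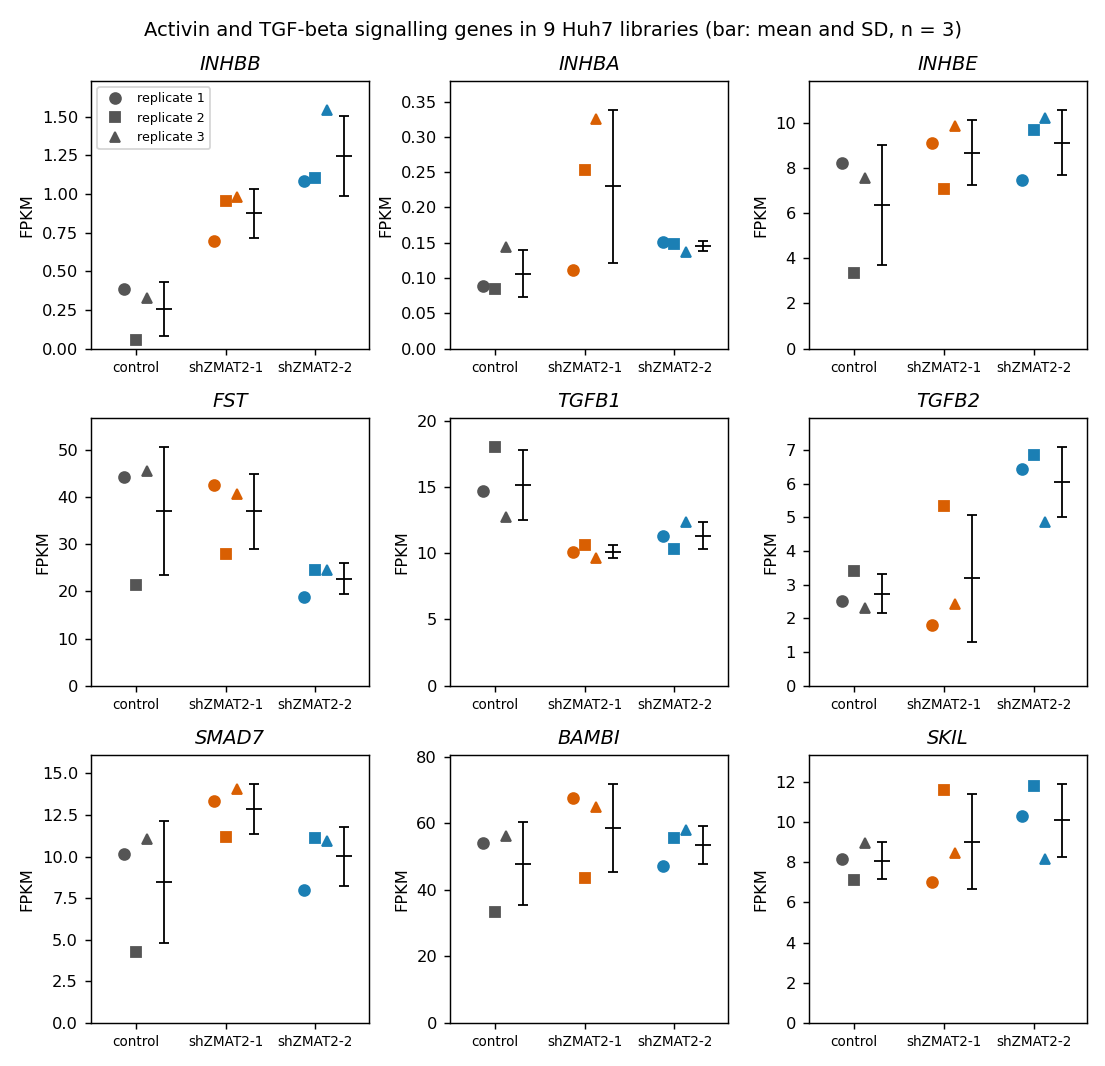
FPKM of each member (vertical axis, from 0, scaled per panel) in the 9 libraries, with points for replicates and bars for the group mean and SD (n = 3). INHBB runs from 0.0546 to 0.382 in control and from 1.09 to 1.55 in shZMAT2-2, and FST is lowest in shZMAT2-2.

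INHBB (ENSG00000163083, chromosome 2, 120346136 to 120351803, plus strand in the deposited table) codes for the activin B subunit and carries the GC-rich stretch shown above. It was at 0.382, 0.0546 and 0.324 FPKM in control replicates 1, 2 and 3. It was at 0.694, 0.954 and 0.978 FPKM in shZMAT2-1 and at 1.09, 1.104 and 1.55 in shZMAT2-2. No library of a knockdown arm lay as low as any control library, and every shZMAT2-2 library lay above every shZMAT2-1 library. The group means were 0.254 ± 0.175, 0.875 ± 0.157 and 1.25 ± 0.260 FPKM (SD, n = 3 each), which is 3.45 times the control in shZMAT2-1 and 4.91 times in shZMAT2-2. In bulk RNA, more cells making a message and more of it per cell cannot be told apart.

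Because INHBB is a rare message, these levels rest on few fragments. Whole fragments recovered from the values were 25, 4 and 20 in control, 41, 70 and 64 in shZMAT2-1, and 81, 84 and 109 in shZMAT2-2. The 95% Poisson interval, which covers counting error only, was 1.09 to 10.2 for the 4 fragments of control replicate 2. For the 25 of control replicate 1 it was 16.2 to 36.9, which overlaps that of the lowest shZMAT2-1 library, 29.4 to 55.6. The intervals of the other knockdown libraries began at 49.3 fragments or higher, above all control intervals. INHBB passed the filter on low values, 1 FPKM in 3 of the 9 libraries, only through the 3 shZMAT2-2 libraries.

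On the scale of log2(FPKM + 1) the INHBB difference from control was 0.59 (SE 0.15) in shZMAT2-1, 0.84 (SE 0.15) in shZMAT2-2 and 0.72 (SE 0.13) for the mean of both arms. That scale presses low genes together, and with 0.1 added in place of 1 the differences were 1.61, 2.07 and 1.84. Control replicate 2, the library with the largest mitochondrial share, was also the lowest for INHBB, and without it the differences were 0.47, 0.72 and 0.60. Scaled to nuclear fragments they were 0.57, 0.90 and 0.73, and the groups still did not overlap. These differences led to the choice of INHBB and are given as a description. Between the arms the difference was 0.26 (SE 0.15). It is a description too, because INHBB entered the fit through the arm in which it was high.

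INHBA (ENSG00000122641, chromosome 7, 41667168 to 41705834, minus strand), the activin A subunit, was the rarest member. It was at 0.0888, 0.0845 and 0.144 FPKM in control, 0.111, 0.253 and 0.325 in shZMAT2-1, and 0.151, 0.148 and 0.137 in shZMAT2-2. No library reached 1 FPKM, so INHBA was not tested. The 3 shZMAT2-1 libraries differed among themselves, with 17 fragments in replicate 1 (95% Poisson interval 9.90 to 27.2) and 55 in replicate 3 (41.4 to 71.6). The control libraries held 15, 16 and 23 fragments and the shZMAT2-2 libraries 29, 29 and 25. At this depth a difference of shZMAT2-1 from control in INHBA was not resolved from the spread within that arm. The shZMAT2-2 and control libraries overlapped in FPKM. On nuclear scaling all shZMAT2-2 libraries lay above all controls, at 0.141 to 0.176 against 0.0824 to 0.135. These levels rest on 25 to 29 fragments against 15 to 23, and the difference was not tested.

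INHBE (ENSG00000139269, chromosome 12, 57452323 to 57459280, plus strand), the subunit of the liver activin, was the most abundant of the 3 subunits. It was at 8.21, 3.33 and 7.54 FPKM in control, 9.10, 7.08 and 9.84 in shZMAT2-1, and 7.47, 9.67 and 10.2 in shZMAT2-2. The groups overlapped, and the low control value came from replicate 2. Differences from control were 0.46 and 0.52 (SE 0.29 each) in shZMAT2-1 and shZMAT2-2, and the difference between the arms was 0.07 (SE 0.29, limma adjusted p = 0.93). Without control replicate 2 the differences from control were 0.11 and 0.18. In every group INHBE stood above INHBB, and the control mean of INHBE was 6.36 FPKM against 0.254 for INHBB.

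TGFB1 (ENSG00000105329, chromosome 19, 41301587 to 41353922, minus strand), the main TGF-beta ligand of most tissues, was lower in both arms than in control. It was at 14.7, 18.0 and 12.8 FPKM in control, 10.1, 10.6 and 9.62 in shZMAT2-1, and 11.3, 10.3 and 12.4 in shZMAT2-2. Every knockdown library lay below every control library, the closest being 12.4 against 12.8 FPKM. The means were 15.1 ± 2.66, 10.1 ± 0.505 and 11.3 ± 1.02 FPKM (SD, n = 3 each), and the differences from control were -0.53 and -0.38 (SE 0.18 each). TGFB1 was highest in control replicate 2, and without that library the differences were -0.40 in shZMAT2-1 and -0.26 in shZMAT2-2. Scaling to nuclear fragments raised control replicate 2 to 27.1 FPKM. On that scale the shZMAT2-2 and control libraries overlapped and the shZMAT2-1 libraries still lay below control. The arms differed by 0.15 (SE 0.18, limma adjusted p = 0.73).

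TGFB2 (ENSG00000092969, chromosome 1, 218345336 to 218444619, plus strand), a second TGF-beta ligand with the TATA-containing stretch above, was higher in shZMAT2-2. It was at 2.51, 3.40 and 2.29 FPKM in control, 1.80, 5.35 and 2.42 in shZMAT2-1, and 6.45, 6.84 and 4.88 in shZMAT2-2. All shZMAT2-2 libraries lay above all control libraries, while shZMAT2-1 was split, with replicate 2 among the shZMAT2-2 values. On nuclear scaling shZMAT2-2 and control overlapped, with 5.00 in the lowest shZMAT2-2 library and 5.13 in control replicate 2. The mitochondrial share was split in the same way, at 16.4% in shZMAT2-1 replicate 2 and 14.5% to 27.0% in shZMAT2-2 against 8.25% and 7.70% in the other shZMAT2-1 replicates. Beyond nuclear scaling and the covariate fit given below, its part was not tested. Control replicate 2, with the largest share, had 3.40 FPKM, the highest control level.

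The mean level of TGFB2 in shZMAT2-2, 6.06 ± 1.04 FPKM (SD, n = 3), was 2.21 times the control mean. The difference from control was 0.92 (SE 0.29) in shZMAT2-2 and 0.09 (SE 0.29) in shZMAT2-1. Between the arms it was 0.83 (SE 0.29), the largest among the members, with a limma p of 0.015 that did not pass adjustment over all genes (adjusted p = 0.66). It stayed positive in 19 of 19 alternatives, from 0.59 without shZMAT2-1 replicate 1 to 1.18 without shZMAT2-1 replicate 2. With the mitochondrial level as a covariate it was 0.62, and on nuclear scaling it was 0.95.

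FST (ENSG00000134363, chromosome 5, 53480626 to 53487134, plus strand), follistatin, was at 44.3, 21.4 and 45.4 FPKM in control. It was at 42.4, 27.8 and 40.6 FPKM in shZMAT2-1 and at 18.8, 24.6 and 24.4 in shZMAT2-2. Every shZMAT2-2 library lay below every shZMAT2-1 library, and only control replicate 2 was as low as shZMAT2-2. The 4 libraries with a mitochondrial share up to 8.28% held 40.6 to 45.4 FPKM of FST, and the 5 others held 18.8 to 27.8 FPKM, whatever their group. Scaled to nuclear fragments the control libraries had 41.1, 32.2 and 42.4 FPKM and the shZMAT2-2 libraries 22.045, 24.6 and 25.1, and these groups no longer overlapped.

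The difference of FST from control was -0.62 (SE 0.31) in shZMAT2-2 and 0.05 (SE 0.31) in shZMAT2-1, the latter turning to -0.13 under nuclear scaling. Without control replicate 2 these differences were -0.97 and -0.30. Between the arms the difference was -0.67 (SE 0.31), with a limma p of 0.054 and an adjusted p of 0.66. It was -0.53 under nuclear scaling (limma adjusted p = 0.42) and -0.30 with the mitochondrial level as a covariate. It was negative in 19 of 19 alternatives, and in none of them did it pass adjustment. Low FST thus went with shZMAT2-2 and with a high mitochondrial share, and beyond these values their parts were not tested.

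SMAD7 (ENSG00000101665, chromosome 18, 48919853 to 48950965, minus strand), the inhibitory SMAD that TGF-beta itself induces, was at 10.1, 4.27 and 11.0 FPKM in control. It was at 13.3, 11.2 and 14.1 FPKM in shZMAT2-1 and at 7.98, 11.1 and 11.0 in shZMAT2-2. The shZMAT2-1 libraries lay above both other groups, with 11.2 against 11.1 and 11.0 FPKM at the closest. The differences from control were 0.63 and 0.29 (SE 0.30 each) in shZMAT2-1 and shZMAT2-2. They rested in large part on control replicate 2, and without it they were 0.25 and -0.09. The arms differed by -0.34 (SE 0.30, limma adjusted p = 0.67), which turned to 0.03 with the mitochondrial covariate.

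**Figure D2:**
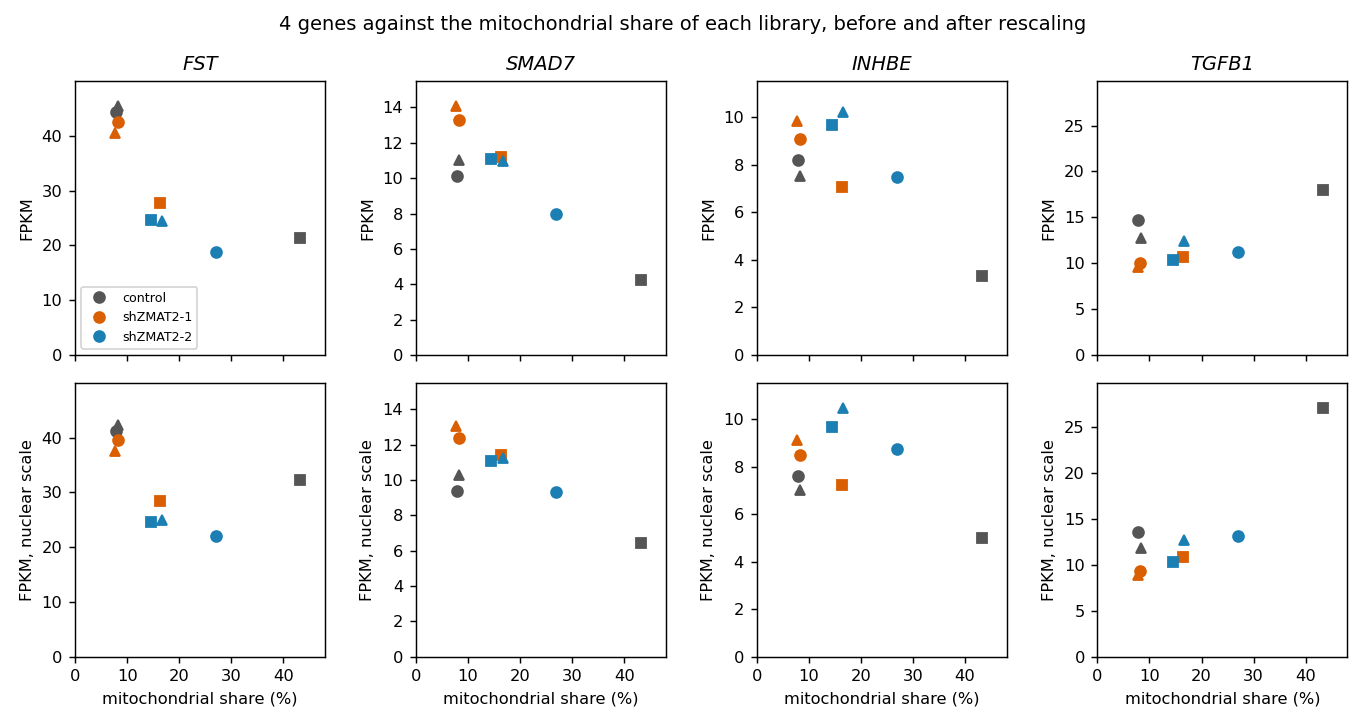
Level of FST, SMAD7, INHBE and TGFB1 (vertical axis) against the mitochondrial share of the library (horizontal axis, percent), 1 point per library with the colour for the group and the symbol for the replicate (circle 1, square 2, triangle 3). The upper panels are in FPKM and the lower ones scaled to nuclear fragments: control replicate 2, at 43.2%, moves from 21.4 to 32.2 for FST and from 18.0 to 27.1 for TGFB1.

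BAMBI (ENSG00000095739, chromosome 10, 28677510 to 28682932, plus strand), the decoy receptor, was the most abundant member in every library. Its levels ran from 33.4 to 56.1 FPKM in control, 43.4 to 67.5 in shZMAT2-1 and 47.1 to 57.9 in shZMAT2-2, and all 3 groups overlapped. The difference was 0.24 (SE 0.23) for the mean of both arms and -0.11 (SE 0.27, limma adjusted p = 0.87) between the arms, which turned to 0.04 under nuclear scaling. Without control replicate 2 the difference of BAMBI was 0.0075 for the mean of both arms and -0.05 for shZMAT2-2. SKIL (ENSG00000136603, chromosome 3, 170357342 to 170396835, plus strand), the SMAD corepressor, also had overlapping groups. Its levels ran from 7.14 to 8.98 FPKM in control, 7.01 to 11.6 in shZMAT2-1 and 8.19 to 11.8 in shZMAT2-2. The SKIL difference was 0.20 (SE 0.19) for the mean of both arms and 0.16 (SE 0.22, limma adjusted p = 0.76) between them, and the former was 0.12 without control replicate 2.

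**Figure D3:**
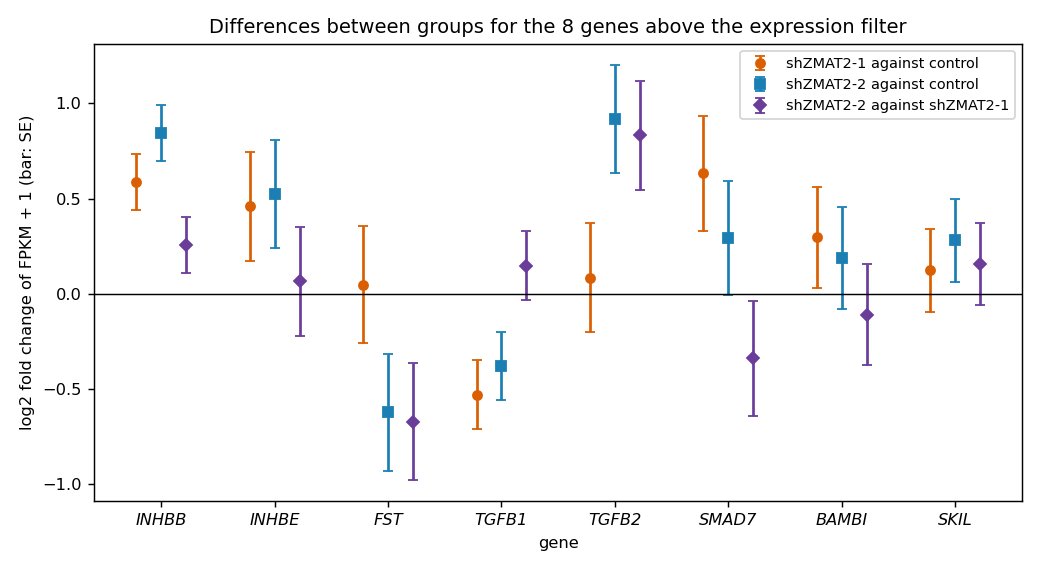
Difference in log2(FPKM + 1) of the 8 tested members for each arm against control and for shZMAT2-2 against shZMAT2-1 (vertical axis, points with bars of 1 SE). INHBB lies above 0 in all 3 comparisons. TGFB2, at 0.92 in shZMAT2-2 and 0.83 between the arms, lies above 0 there by more than its SE, and FST lies below 0 by more than its SE in the same comparisons.

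Of the 9 members, 8 passed the filter on low values, and INHBA did not. Against control the 8 were described and not tested, because the genes were chosen there. Over all 11245 tested genes the share past a limma adjusted p of 0.05 was 0.542% in the mean of both arms, 0.587% in shZMAT2-2 and 0.08% in shZMAT2-1. The median difference of the 8 was 0.35 for the mean of both arms, 0.21 for shZMAT2-1 and 0.29 for shZMAT2-2, beside 0.10, 0.16 and 0.05 over all tested genes. Leaving out INHBB, for which the genes were chosen, the median of the other 7 was 0.24, 0.12 and 0.28. Without control replicate 2 the median of the 8 was 0.10, 0.09 and 0.07, beside -0.11, -0.05 and -0.15 over all genes. Leaving out INHBB as well, it was 0.08, 0.06 and -0.05. On nuclear scaling the median of the 7 was 0.13, -0.04 and 0.25, beside 0.01, 0.01 and 0.03 over all genes. At an unadjusted p under 0.05 the share of all genes was 6.93% in the mean of both arms, 5.76% in shZMAT2-1 and 7% in shZMAT2-2.

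Groups that do not overlap were also counted, as a description where control is involved. INHBB was chosen because it was higher with knockdown and passed the filter only through shZMAT2-2. It is therefore not read against the shares of all genes that were higher than control. All 6 knockdown libraries lay above all controls for INHBB and below them for TGFB1, which was so for 4.69% of all genes in the upward and 0.685% in the downward direction. shZMAT2-1 lay above control for INHBB and SMAD7 (9.1% of all genes) and below it for TGFB1 (1.83%). shZMAT2-2 lay above control for INHBB and TGFB2 (11.9% of all genes) and below it for TGFB1 (1.52%). On nuclear scaling INHBB alone separated both arms together from control, with 5.03% of all genes higher and 2.47% lower. There shZMAT2-1 was above control for INHBB and SMAD7 (8.38%) and below it for TGFB1 (6.1%), and shZMAT2-2 was above it for INHBB, INHBE and BAMBI (11.4%) and below it for FST (5.42%).

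Between the arms 0 of the 8 members passed by limma, as did 0% of all genes. At an unadjusted p under 0.05 there was 1 member, TGFB2, and 4.14% of all genes. The arms did not overlap for FST and SMAD7, lower in shZMAT2-2, where 9.28% of all genes were lower without overlap. INHBB was higher without overlap, but its place among the tested genes was fixed by its shZMAT2-2 levels, so it is not read against the 5.59% of all genes that were higher. On nuclear scaling FST and SMAD7 were again lower without overlap, where 7.24% of all genes were lower. INHBB was again higher there, and for the same reason it is not read against a share. The median difference between the arms was 0.07 for the 7 members other than INHBB, beside -0.09 over all tested genes. The comparisons with control share their control libraries, so their values are set side by side and not counted as separate evidence.

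The rest of the pathway was read from 6 lists with 95 genes, of which 92 were used and 60 passed the filter on low values. These lists were chosen with earlier results of these data known, so their calls and p-values against control are descriptive. In the mean of both arms 1 of the 60 rose by the limma test, IGFBP3, and none fell, where 0.542% of all genes passed. At an unadjusted p under 0.05 there were 14 of the 60 and 6.93% of all genes. Their median difference was 0.16, beside 0.10 over all genes, and 45 of 60 estimates were above 0, beside 71.8% over all genes. In shZMAT2-2, 2 rose, IGFBP3 and THBS1, and none fell, where 0.587% of all genes passed. At an unadjusted p under 0.05 there were 10 of the 60 there and 7% of all genes. In shZMAT2-1 none passed by limma, and 9 had an unadjusted p under 0.05, beside 5.76% of all genes. Between the arms none passed by limma, and 4 had an unadjusted p under 0.05, beside 4.14% of all genes.

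Among 6 other ligands that were tested, none passed, and their median difference in the mean of both arms was 0.32. BMP4, a bone morphogenetic protein, was at 4.04 ± 0.920 FPKM in control, 4.37 ± 0.159 in shZMAT2-1 and 8.26 ± 0.452 in shZMAT2-2 (SD, n = 3 each). All shZMAT2-2 libraries lay above those of both other groups, but the limma adjusted p was 0.055 against control and 0.66 against shZMAT2-1. GDF15, a stress-induced member of the superfamily, was at 31.9 ± 14.1, 60.9 ± 3.49 and 61.7 ± 17.6 FPKM (SD, n = 3 each), and limma gave an adjusted p of 0.33 for both arms together. BMP2, 1 of the bone morphogenetic proteins that induce hepcidin in liver, had means of 28.2, 45.6 and 44.5 FPKM. GDF11, a ligand of the activin receptors, had means of 5.53, 3.91 and 4.48 FPKM. The lowest library for GDF15 and BMP2 was control replicate 2, at 15.6 and 16.2 FPKM.

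Of 9 tested receptors and coreceptors none passed, and their median was 0.08. ACVR1B, the type I receptor of activins, had means of 18.9, 15.8 and 14.7 FPKM in control, shZMAT2-1 and shZMAT2-2. ACVR2B, a type II receptor of activins, had means of 1.66, 1.18 and 1.38 FPKM. All knockdown libraries lay below all controls for ACVR2B, as for 0.685% of all genes. On nuclear scaling ACVR2B overlapped, while ACVR1B was lower without overlap, as were 2.47% of all genes. ACVR1 and BMPR1A, type I receptors used by bone morphogenetic proteins, had means of 2.601, 3.20 and 3.84 FPKM and of 4.57, 5.09 and 5.80 FPKM. None of these 4 had a limma adjusted p under 0.80 in the mean of both arms.

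Of 8 tested extracellular regulators, 1 passed in shZMAT2-2 and none in the mean of both arms, where the median was 0.24. THBS1, thrombospondin 1, which can release latent TGF-beta, was at 10.3, 5.50 and 9.03 FPKM in control and 12.0, 17.2 and 13.1 in shZMAT2-1. In shZMAT2-2 it was at 20.3, 31.2 and 22.5 FPKM, and the 3 groups formed separate steps. Its difference in shZMAT2-2 was 1.48 (SE 0.26, limma adjusted p = 0.040), and over the alternatives the adjusted p ran from 0.0011 to 1.00. Of the 9 fits with a library left out, only the one without control replicate 2 kept the call. FSTL3, a follistatin-like binder of activins, had means of 7.00, 15.02 and 11.8 FPKM (both arms together, limma adjusted p = 0.56), ITGAV, an integrin that activates TGF-beta, 10.7, 14.7 and 20.1, and FBN1, fibrillin, 0.961, 1.28 and 1.77.

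No gene of the intracellular machinery passed. None of 9 tested SMAD proteins and cofactors passed, with estimates from -0.13 to 0.25 in the mean of both arms and a median of 0.11. SMAD6, the other inhibitory SMAD, had means of 13.2, 17.2 and 14 FPKM, with shZMAT2-1 above both other groups, as for SMAD7. SMAD3, the TGF-beta effector, had 8.09, 8.97 and 9.89 FPKM, SMAD4, the common partner, 2.82, 3.27 and 2.96, and SMAD5, a bone morphogenetic protein effector, 6.90, 7.60 and 8.60. None of 11 tested intracellular regulators passed either, and their median was 0.15. SMURF1, a ubiquitin ligase for SMADs and receptors, had means of 8.47, 11.8 and 11.5 FPKM. All its knockdown libraries lay above all controls, as for 4.69% of all genes. SMURF2, PPM1A and TGIF1 had differences of 0.16, 0.17 and 0.22 in the mean of both arms.

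Among 17 tested targets 1 rose, and the median was 0.27. IGFBP3, a carrier of insulin-like growth factors that TGF-beta induces in many cells, was at 3.79, 2.23 and 4.13 FPKM in control. It was at 8.05, 7.65 and 7.80 FPKM in shZMAT2-1 and at 9.09, 10.2 and 10.3 in shZMAT2-2. The 3 groups did not overlap and stood in the same order as for INHBB and THBS1. The difference was 1.19 (SE 0.17, limma adjusted p = 0.014) in the mean of both arms, 1.34 (SE 0.20, adjusted p = 0.019) in shZMAT2-2 and 1.04 (SE 0.20, adjusted p = 0.12) in shZMAT2-1. In the mean of both arms the call held without control replicate 2, shZMAT2-1 replicate 2 or shZMAT2-2 replicate 1, and missed without any other library, at an adjusted p of up to 0.063. Over all alternatives that adjusted p ran from 4.9e-05 to 0.95, and the difference from 0.98 to 1.41.

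JUNB, an immediate-early transcription factor, had means of 13.2, 20.6 and 25.3 FPKM, the knockdown libraries all above the controls, and a limma adjusted p of 0.21 for both arms together. KLF10, the TGF-beta-inducible early gene, had 7.00, 8.49 and 11.7 FPKM (adjusted p = 0.44 by limma). TGFBI, a matrix protein named for its induction by TGF-beta, had 57.7, 83.4 and 80.2 FPKM (adjusted p = 0.54 by limma). JUNB and TGFBI were lowest in control replicate 2, at 8.77 and 42.2 FPKM, the library with the largest mitochondrial share. With the mitochondrial level as a covariate 15 of the 60 listed genes passed in the mean of both arms, JUNB, KLF10 and TGFBI among them, and so did 9.75% of all genes.

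**Figure D4:**
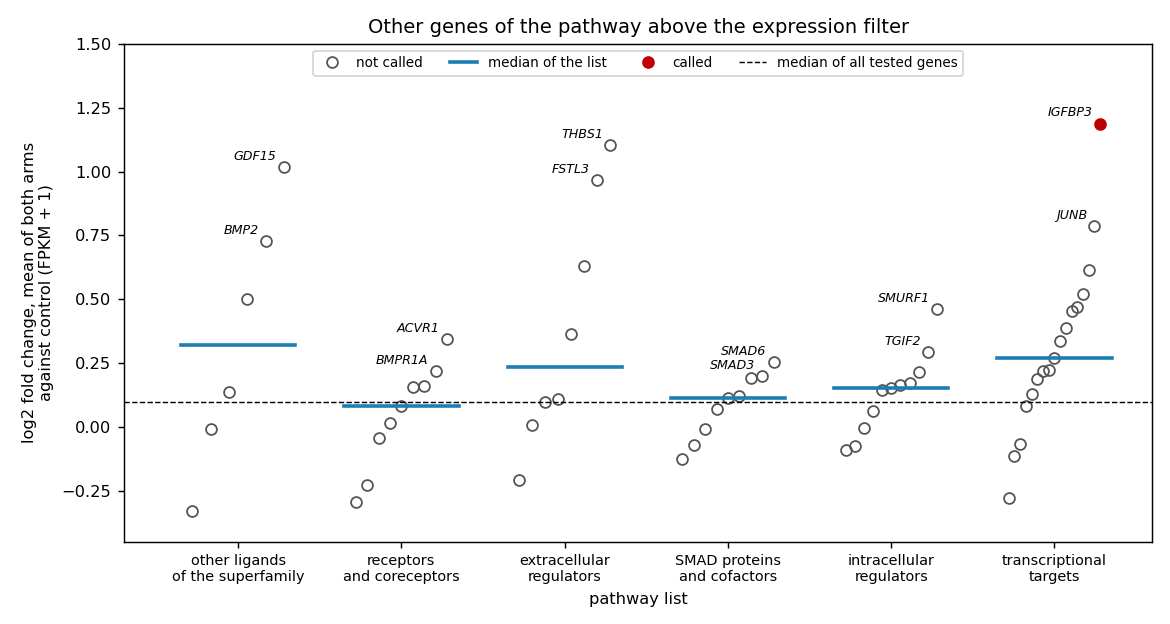
Difference in log2(FPKM + 1) for the mean of both arms against control (vertical axis) of the 60 tested genes of the 6 lists, 1 point per gene, with the median of each list and of all tested genes. IGFBP3 at 1.19 is the only gene called.

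The genes whose levels were most like that of INHBB over the 9 libraries were DUSP8, GSTM4, HABP2, SLC48A1 and TPM1. Likeness was Pearson's r of log2(FPKM + 1), taken over 6366 protein-coding genes, and it was 0.98 for the first 3 and 0.97 for SLC48A1 and TPM1. The points share their libraries, depth and 3 groups, so r restates the group order and is a description. HABP2, a liver-made serine protease that binds hyaluronan, was at 4.11 ± 0.852, 9.95 ± 1.04 and 16.9 ± 1.59 FPKM in control, shZMAT2-1 and shZMAT2-2 (SD, n = 3 each). TPM1, a tropomyosin of the actin filament, had means of 3.33, 7.21 and 9.31 FPKM, DUSP8, a phosphatase of MAP kinases, 3.33, 5.69 and 6.67, and SLC48A1, a heme transporter, 2.28, 4.68 and 6.95. GSTM4, a glutathione transferase, had 2.73, 4.67 and 6.38 FPKM, which is uncertain because close paralogs can share its reads. Control replicate 2 was the lowest library for all 5, as for INHBB. Its median-of-ratios size factor, taken over genes above 0 in every library, was 0.667 against 0.907 to 1.14 in the others. A low level in that library is therefore not particular to these genes.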

How the data were processed

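Poly(A) RNA was sequenced from dUTP strand-specific libraries, per the labels' protocols. FPKM, computed by the authors, were deposited for 27421 genes in 9 libraries. The tools named per the submitters' processing notes are HISAT, featureCounts and DESeq2, with no version. Gene coordinates are those of the table, with a build not given in the sources used here. Depth and whole fragments were recovered with GENCODE release 29 exon lengths from 1633 single-exon genes, taking values within 0.1 fragments as whole.

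The 11245 genes that reached 1 FPKM in 3 or more libraries were fitted with limma 3.58.1 (R 4.3.3, trend, group as the only term, all 9 libraries) on log2(FPKM + 1). Calls were made at an adjusted p under 0.05 (two-sided, Benjamini-Hochberg over all tested genes). The fit was tested on simulated data. The members and the gene lists were chosen with earlier results of these data known. Members were therefore tested only between the arms. Named are the members, ZMAT2, up to 4 genes per list with the smallest adjusted p in the mean of both arms, every listed gene called, and the 5 genes most like INHBB. Alternatives were a pseudocount of 0.1, no filter or 5 FPKM, TPM, median-of-ratios and quantile scaling, a replicate block, a mitochondrial covariate, only the groups compared, each library left out, and, chosen after seeing the data, scaling on nuclear fragments. Python 3.11.15 with pandas 2.3.3, scipy 1.17.1 and matplotlib 3.10.9 was used for the rest.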

Additional observations from a re-analysis of the deposited data

How the results depend on the processing

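For the pathway genes called, the count of 1 in the mean of both arms became 0 with TPM, 5 with median-of-ratios scaling, 4 with quantile normalization, 15 with the mitochondrial covariate and 4 with scaling on nuclear fragments. The calls over all genes moved as well, from 61 (51 higher, 10 lower) to 1, 215 (147 and 68), 209 (146 and 63), 1096 (893 and 203) and 209 (145 and 64) under the same settings. With 1 library left out it ran from 0 to 2: it was 2 without control replicate 2, and 0 without control replicate 1 or 3, shZMAT2-1 replicate 1 or 3, or shZMAT2-2 replicate 2 or 3. The count of 0 in shZMAT2-1 became 1 with median-of-ratios scaling, quantile normalization or nuclear scaling and 6 with the covariate, and ran from 0 to 1 with a library left out, 1 without control replicate 2. The count of 2 in shZMAT2-2 became 1 without a filter, with 5 FPKM or with the replicate block, 0 with TPM or only the groups compared, 4 with median-of-ratios, quantile or nuclear scaling, and 15 with the covariate. With a library left out it ran from 0 to 5, with 5 when control replicate 2 was left out, 1 when shZMAT2-1 replicate 2 was, and 0 for any other. The cause was not tested.

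Between the arms no member or listed gene passed in any alternative. The sign of differences near 0 turned with TPM for INHBE (-0.15), TGFB1 (-0.065) and SKIL (-0.051), with the mitochondrial covariate for SMAD7 (0.032) and BAMBI (0.17), and for BAMBI with quantile normalization (0.13) and nuclear scaling (0.037). With 1 library left out, INHBE ran from -0.059 to 0.19, below 0 when shZMAT2-1 replicate 2 or shZMAT2-2 replicate 3 was left out (-0.014 in the latter), and BAMBI from -0.31 to 0.0050, above 0 when shZMAT2-1 replicate 1 was left out.

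Same-numbered libraries did not deviate together steadily. Their r ran from -0.763 to 0.777 over 9 pairs, 6 of them over 0.1, and 2 of 9 libraries correlated best with their own number. These correlations cannot settle whether same-numbered libraries were handled together. The median of all genes in shZMAT2-1, 0.16, was 0.32 with TPM and -0.05 without control replicate 2, so small shifts of a member carry no direction. Depth limits INHBB and INHBA, which rest on 4 to 109 and 15 to 55 fragments.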

Other observations

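The deposited table also carries pathway annotations, and its TGF-beta signaling pathway list from KEGG was read after the values had been seen. It holds 96 genes of the table, 66 of them tested and 7 of them members. Of its 59 tested genes that are no members, 0 passed by limma in the mean of both arms, with 6 higher and 1 lower at an unadjusted p under 0.05. Their median difference was 0.15 beside 0.10 over all genes, of which 6.93% had an unadjusted p under 0.05. Of the 28 genes of that list outside the members and the 6 lists above, 0 passed by limma in any of the 4 comparisons, and 2 had an unadjusted p under 0.05 in the mean of both arms.

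HAMP, hepcidin, the iron hormone of the liver that bone morphogenetic proteins induce, is 1 of these 28 and was singled out after its values were seen. It was at 5.33, 2.83 and 5.70 FPKM in control, 5.57, 3.02 and 6.21 in shZMAT2-1, and 1.16, 1.43 and 1.60 in shZMAT2-2. All shZMAT2-2 libraries lay below all others, also on nuclear scaling. The difference was -1.19 (SE 0.27, limma adjusted p = 0.12) from control and -1.27 (SE 0.27, limma adjusted p = 0.66) from shZMAT2-1. BMP4 was higher in the same 3 libraries, at 7.74 to 8.59 FPKM against 3.48 to 5.10 in the other 6.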
